A study of Mus musculus with 18 samples.

Results

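The GFP-sorted Lgr5+ fraction of the ileal crypt epithelium was compared between Setdb1-KO and WT mice over the whole sort, with every kept cell of a library counted together and not the stem-like cells alone. Of the 8 single-cell RNA-seq libraries with count files, the 4 Lgr5+ libraries were used, 2 from Setdb1-KO and 2 from WT mice. Barcodes with 1000 to 18000 UMIs, 200 to 4000 genes and under 5% of UMIs from mitochondrial genes were kept, which left 25204 barcodes of 6066104 listed. Libraries 1 and 2 gave 4764 and 6133 of them for WT, and 2889 and 11418 for Setdb1-KO. UMIs were summed over the kept barcodes of each library, so the library was the replicate and each gene had 4 values.

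Both genotypes carried the Lgr5-GFP-CreERT2 knock-in allele on a C57Bl6 background. That allele drives GFP and a tamoxifen-inducible Cre from the Lgr5 locus, and it is known to be silent in part of the crypts. WT mice carried this allele alone, whereas Setdb1-KO mice were Lgr5-GFP-CreERT2/Setdb1lox/lox, with exon 3 of Setdb1 flanked by loxP sites. Males of 60 to 65 days, of both genotypes, received 70 mg/kg tamoxifen intraperitoneally, and GFP+ cells were sorted at day 5. Each library is a separate biological replicate according to the study, and the comparison asks which transcripts differ between the genotypes over the whole sort. The study ascribes the mature enterocytes, goblet, Paneth, tuft and enteroendocrine cells of this sort to its gating and to incomplete enrichment for GFP. These libraries carry no lineage label, so whether Setdb1 was deleted in such cells was not tested.

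Setdb1 is a histone methyltransferase that deposits methylation on lysine 9 of histone H3 and is known for silencing endogenous retroviruses, imprinted and germline-specific genes, often when recruited through zinc-finger proteins and the corepressor Trim28. Lgr5+ stem cells at the crypt base divide continuously and feed a pool of cycling progenitors. Their progeny become absorptive enterocytes, which digest and take up nutrients, or secretory goblet, Paneth, enteroendocrine and tuft cells. The sort held markers of these other cell types besides those of stem cells.

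The files listed 50722926 to 81876035 UMIs per library, of which 27534841 to 61327531 were in kept barcodes. A kept barcode had a median of 7604 and 6083 UMIs in WT and of 9329 and 4686.5 UMIs in Setdb1-KO. Library 1 of Setdb1-KO was thus the deepest per cell and library 2 the shallowest. Pairs of the 4 libraries shared 3 to 24 barcode sequences, at most 0.450% of the smaller library. The epithelial genes Epcam and Krt8 were at 1796 to 2764 CPM and at 2148 to 2470 CPM (UMIs of a gene as a share of the library total, scaled by TMM). Lgr5 itself was at 17.8 and 13.8 CPM in WT and at 11.1 and 8.23 CPM in Setdb1-KO.

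Setdb1 transcripts were at 10.8 and 10.3 CPM in WT and at 5.07 and 6.51 CPM in Setdb1-KO, a 1.80-fold difference. The log2 fold change was -0.85 ± 0.146 (SE) with an adjusted p of 0.0459 (edgeR's quasi-likelihood test, Benjamini-Hochberg adjustment over all genes tested, as for every adjusted p of this comparison). Setdb1-KO was below WT in every pair of libraries, but the call was kept in 1 of the 4 fits that left out a library, the one without Setdb1-KO library 2 (adjusted p = 0.0225). The adjusted p was 0.212 without Setdb1-KO library 1, 0.136 without WT library 1 and 0.0999 without WT library 2. The counted reads come from the 3′ end of transcripts and the deleted exon lies elsewhere, so these counts do not check the deletion itself. None of the other 16 measured members of the list of H3K9 methylation genes passed the test. Setdb2, a related methyltransferase, was at 4.08 and 2.95 CPM in WT and at 3.88 and 3.57 CPM in Setdb1-KO.

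Of 13660 genes tested, 194 (1.42%) differed between the genotypes. Of those tested, 119 (0.871%) were higher and 75 (0.549%) were lower in Setdb1-KO at an adjusted p under 0.05. Both Setdb1-KO libraries lay above both WT libraries for 3359 genes (24.6%) and below them for 3501 genes (25.6%). The median log2 fold change of all tested genes was -0.01. Of the 119 higher genes 13, and of the 75 lower genes 6, were called in each of the 4 fits that left out 1 library. Without Setdb1-KO library 1 the whole comparison called 32 genes higher and 10 lower, whereas without Setdb1-KO library 2 it called 308 and 96. Without WT library 1 the counts were 35 and 37, and without WT library 2 they were 55 and 32. With the barcodes marked as doublets left out, 80 and 49 genes were called.

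**Figure D1:**
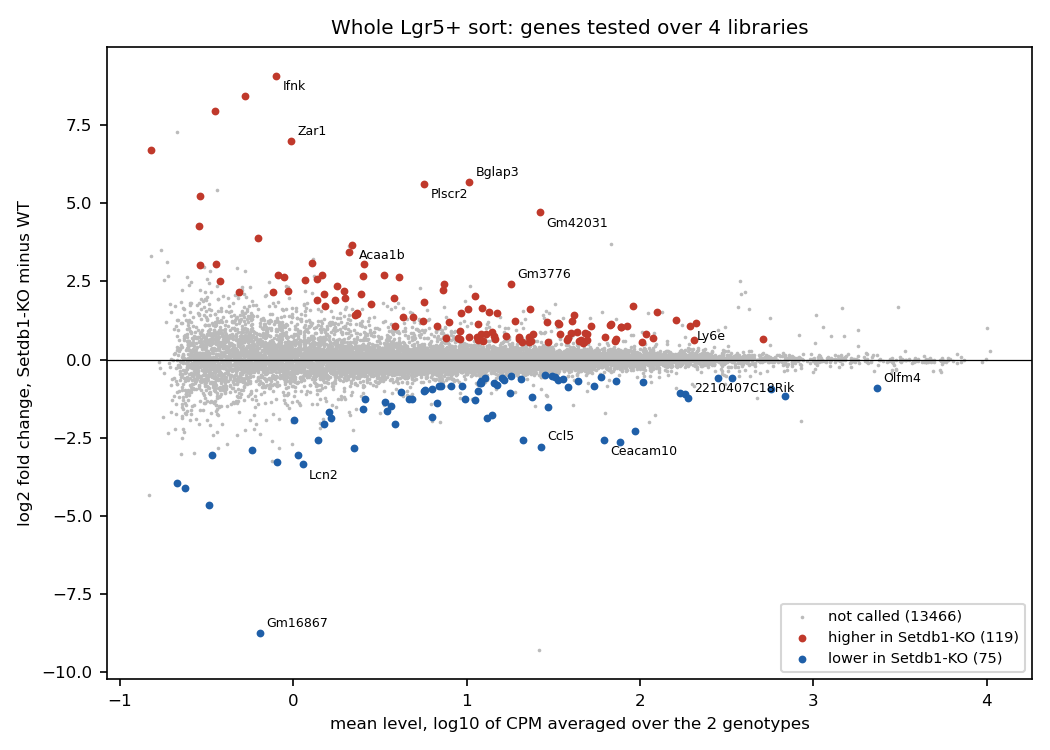
Each point is 1 of the 13660 genes tested over the whole Lgr5+ sort. The horizontal axis is the log10 of the CPM averaged over the genotypes and the vertical axis is the log2 fold change of Setdb1-KO against WT. Red points are the 119 genes higher and blue points the 75 genes lower in Setdb1-KO at an adjusted p under 0.05, and gray points were not called. Ifnk, at the top, and Gm16867, at the bottom, have 0 UMIs in one genotype, so their heights are fitted values and no bounds.

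The smallest p-values among the higher genes belonged to genes with little spread between libraries. Plscr2, a member of the phospholipid scramblase family on chromosome 9, (chr9:92275602-92297752, plus strand, mm10 as in all coordinates) was at 0.149 and 0.3 CPM in WT and at 11 and 11.3 CPM in Setdb1-KO. Its log2 fold change was 5.62 ± 0.245 (adjusted p = 0.00046). The 2 groups did not overlap, and Plscr2 UMIs were found in 0.105 and 0.196% of WT barcodes against 9.28 and 5.20% of Setdb1-KO barcodes. Its neighbor Plscr1 rose as well, from 38.8 and 38.8 CPM to 61.2 and 58.9 CPM (log2 fold change 0.63, adjusted p = 0.0165). Reads may be shared between such related genes, so their separate values are uncertain. The call of Plscr1 was lost without Setdb1-KO library 1 (adjusted p = 0.135), WT library 1 (0.0648) and WT library 2 (0.0611).

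Alad, which encodes the enzyme that joins aminolevulinate molecules in heme synthesis, was at 92.5 and 98.3 CPM in WT and at 230 and 225 CPM in Setdb1-KO (log2 fold change 1.25 ± 0.0782, adjusted p = 0.00184). Hdhd3, whose start lies 16.5 kb from that of Alad, was at 44.6 and 39.7 CPM against 100.2 and 83.1 CPM (1.12, adjusted p = 0.00901). Ly6e, a GPI-anchored surface protein of the Ly6 family, was at 124 and 125 CPM in WT and at 264 and 266 CPM in Setdb1-KO (1.09 ± 0.0759, adjusted p = 0.00302). For Alad and Ly6e the 2 libraries of a genotype lay close together, and Alad, Hdhd3 and Ly6e were 2.39-fold, 2.17-fold and 2.12-fold higher in Setdb1-KO. Hdhd3 was not called without Setdb1-KO library 1 (adjusted p = 0.0778).

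Larger folds were measured for genes that were low in WT. Bglap3, which encodes an osteocalcin-related protein, was at 0.299 and 0.501 CPM in WT and at 13.3 and 27.5 CPM in Setdb1-KO (log2 fold change 5.68 ± 0.455, adjusted p = 0.00471). Gm42031, a predicted gene at chr8:85125872-85132289, was at 2.76 and 1.18 CPM against 39.5 and 63.1 CPM (4.71 ± 0.371, adjusted p = 0.00458). The zinc-finger gene Zfp791, 9.19 kb from Gm42031, was at 0.597 and 0.576 CPM against 2.90 and 3.06 CPM (2.34, adjusted p = 0.00873). The Setdb1-KO levels of these 3 genes did not overlap the WT levels, though Bglap3 and Gm42031 differed by over 1.5-fold between the 2 Setdb1-KO libraries. Without Setdb1-KO library 1 the adjusted p of Zfp791 was 0.067.

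Among the other leading genes were some that encode metabolic enzymes. Gm3776, a predicted glutathione S-transferase of the alpha class, was at 5.70 and 5.66 CPM in WT and at 33.8 and 26.8 CPM in Setdb1-KO (log2 fold change 2.41, adjusted p = 0.00123). Nat8, an acetyltransferase that completes mercapturic acid synthesis, was at 4.01 and 4.81 CPM against 19.8 and 16.3 CPM (2.02, adjusted p = 0.00329), and its neighbor Nat8f5 also rose (2.10, adjusted p = 0.0165, but 0.104 without Setdb1-KO library 1 and 0.0603 without WT library 1). Acaa1b, a peroxisomal thiolase of fatty acid oxidation, was at 0.249 and 0.376 CPM against 4.93 and 3.23 CPM (3.67, adjusted p = 0.00759). Gm3776, Nat8 and Acaa1b have close relatives in the genome, with which their reads may be shared. Khk, the kinase that commits fructose to metabolism, was at 78.4 and 79.7 CPM against 137 and 140 CPM (0.81, adjusted p = 0.00609). Its call was lost without Setdb1-KO library 1 (adjusted p = 0.067).

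The remaining higher genes of the 15 with the smallest p-values were Eif3j2, Rbakdn, Gm49980, 2200002J24Rik, Gstm3 and Sis. Eif3j2, a copy of a translation initiation factor gene whose reads may be shared with Eif3j1, was at 2.26 and 2.35 CPM in WT and at 12.3 and 12.6 CPM in Setdb1-KO (log2 fold change 2.43, adjusted p = 0.00111). Rbakdn, a noncoding neighbor of the zinc-finger gene Rbak, was at 0.572 and 0.526 CPM against 3.85 and 5.31 CPM (3.07, adjusted p = 0.00576). Gm49980 and 2200002J24Rik rose by 1.19 and 1.51 on the log2 scale (adjusted p = 0.00576 and 0.00759). Gm49980, 2200002J24Rik and Gstm3 lost their calls without Setdb1-KO library 1, with adjusted p-values of 0.0731, 0.0606 and 0.0829.

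**Figure D2:**
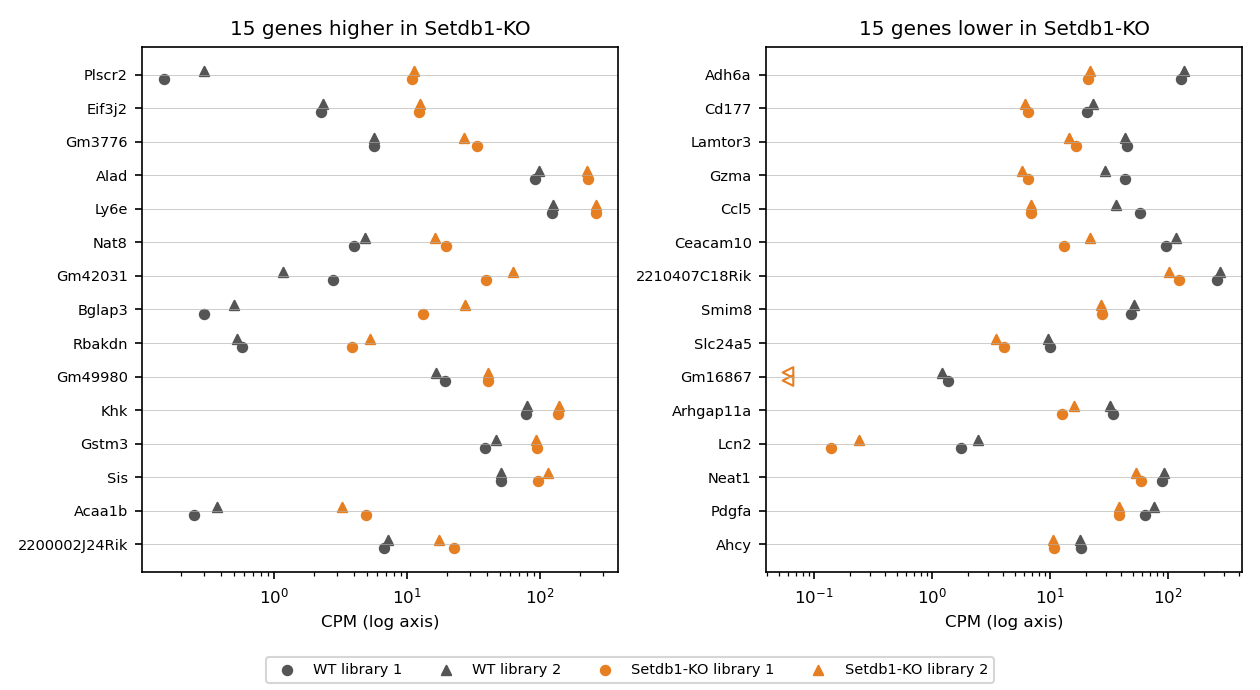
CPM on a log axis in each of the 4 Lgr5+ libraries for the 15 higher genes (left) and the 15 lower genes (right) with the smallest p-values. Gray marks WT and orange Setdb1-KO, circles are library 1 and triangles library 2, and open left-pointing triangles at the axis edge stand for 0 UMIs, as for Gm16867 in both Setdb1-KO libraries. The orange and gray symbols of a gene do not overlap in any row, as the choice of these genes required.

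Among the lower genes Adh6a, an alcohol dehydrogenase gene at chr3:138313286-138331134, had the smallest p-value of the comparison. It was at 127 and 137 CPM in WT and at 21.0 and 21.7 CPM in Setdb1-KO (log2 fold change -2.63 ± 0.0808, adjusted p = 7.96e-05). Adh1, whose start is 52.3 kb away, changed the other way, from 46.8 and 55.9 CPM to 117 and 93.9 CPM (1.04 ± 0.129, adjusted p = 0.0196). Lamtor3, a subunit of the Ragulator complex that anchors mTORC1 signaling to lysosomes, lies 394.8 kb from Adh6a and fell from 44.6 and 43.3 CPM to 16.5 and 14.4 CPM (-1.51 ± 0.0973, adjusted p = 0.00195). Genes of one stretch of chromosome 3 therefore differed in both directions, and the call of Adh1 was lost without Setdb1-KO library 1 (adjusted p = 0.125) and without WT library 1 (0.0624).

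Cd177 and Ceacam10 start 16.9 kb apart on chromosome 7, and both encode surface or secreted glycoproteins. Cd177 was at 20.5 and 23.1 CPM in WT and at 6.54 and 6.13 CPM in Setdb1-KO (log2 fold change -1.79 ± 0.106, adjusted p = 0.00161). Ceacam10, of the carcinoembryonic antigen family, was at 95.2 and 117 CPM against 13.2 and 22 CPM (-2.58 ± 0.226, adjusted p = 0.00609). Ceacam10 UMIs were found in 36.1 and 34.7% of WT barcodes and in 6.47 and 7.60% of Setdb1-KO barcodes, the 2 Setdb1-KO libraries being the deepest and the shallowest per cell. Ceacam1, a further member of that family on the same chromosome, was at 42.8 and 44.6 CPM against 26 and 30.8 CPM (-0.62, adjusted p = 0.0413), a call lost without Setdb1-KO library 1 (0.2), WT library 1 (0.0988) or WT library 2 (0.114).

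Other lower genes were 2210407C18Rik (-1.24, adjusted p = 0.00609), an uncharacterised transcript that fell from 257 and 277 CPM to 123 and 102 CPM, and Smim8, a small membrane protein (-0.87, adjusted p = 0.00739). Arhgap11a, a GTPase activating protein of dividing cells, was at 34.2 and 32.2 CPM in WT and at 12.5 and 16.0 CPM in Setdb1-KO (-1.21, adjusted p = 0.0115). Pdgfa, a growth factor for mesenchymal cells, was at 63.8 and 75.7 CPM against 38.3 and 38.6 CPM (-0.86, adjusted p = 0.0155). These and Slc24a5, a cation exchanger (-1.38, adjusted p = 0.00901), were lower in both Setdb1-KO libraries than in both WT libraries. Smim8, Arhgap11a, Pdgfa and Slc24a5 were not called without Setdb1-KO library 1 (adjusted p = 0.0858, 0.067, 0.137 and 0.0731), whereas 2210407C18Rik was called in each of the 4 fits.

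Ahcy, which hydrolyses the S-adenosylhomocysteine left by every methylation reaction, was at 18.3 and 17.9 CPM in WT and at 10.9 and 10.7 CPM in Setdb1-KO (log2 fold change -0.75 ± 0.0878, adjusted p = 0.0159). Neat1, the long noncoding RNA on which nuclear paraspeckles assemble, was at 89.2 and 91.4 CPM against 58.4 and 53.2 CPM (-0.70 ± 0.0792, adjusted p = 0.0155). Its neighbor on chromosome 19, Malat1, was at 6971 and 7961 CPM in WT and at 7458 and 7330.0 CPM in Setdb1-KO and did not pass the test (adjusted p = 0.974). The adjusted p of Ahcy was 0.131 without Setdb1-KO library 1 and 0.0559 without WT library 1. The adjusted p of Neat1 was 0.0903 without Setdb1-KO library 1, 0.052 without WT library 1 and 0.0538 without WT library 2. Lcn2, which encodes a lipocalin that keeps iron from bacteria, was at 1.74 and 2.43 CPM in WT and at 0.140 and 0.239 CPM in Setdb1-KO (-3.34 ± 0.371, adjusted p = 0.0144, but 0.104 without Setdb1-KO library 1 and 0.055 without WT library 2).

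A group of transcripts was almost absent from one genotype. Ifnk, which encodes the type I interferon kappa, had 0 UMIs in the WT sums and 143 in the Setdb1-KO sums. With a floor of 3 counts over the WT group, Ifnk was at least 42.9-fold higher in Setdb1-KO. Zar1, a gene known from the oocyte, had 1 UMI in WT and 181 in Setdb1-KO, a ratio of 163 with a 95% counting interval from 28.8 to 6464. The noncoding or predicted genes Gm26862, Gm10522 and Gm16223 had 0 UMIs in WT and 85, 67 and 27 in Setdb1-KO, at least 25.5-fold, 20.1-fold and 8.09-fold higher. Thegl, a gene known from the testis, had 1 and 50 UMIs (ratio 45.0, 7.71 to 1811), and Gm5868, which starts 6.30 kb from Zar1, had 2 and 47 (ratio 21.1, 5.53 to 179.6).

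In the other direction, the predicted gene Gm16867 on chromosome 14 had 103 UMIs in WT and 0 in Setdb1-KO, which makes it at least 38.2-fold lower in this sort. In the lineage-traced libraries described below the gene was instead absent from WT and found in Setdb1-KO. 9430037G07Rik had 51 and 2 UMIs (WT over Setdb1-KO ratio 28.4, 7.46 to 240.5). Counting intervals and floors cover counting error only. The level of each of these transcripts was under 3 CPM in every library. Gm26862, Gm10522 and 9430037G07Rik were each called in 1 of the 4 fits that left out a library, and Gm16223 in 0. The call of Ifnk was lost without Setdb1-KO library 1 (adjusted p = 0.075) and that of Gm16867 without WT library 1 (0.0505), while Thegl lost its call without Setdb1-KO library 1, WT library 1 or WT library 2 (0.13, 0.13 and 0.0776) and Gm5868 in each of the 4 fits (0.0569 to 0.186). Zar1 kept its call in each of the 4 fits (adjusted p 0.0069 to 0.037).

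Promoter sequences are given for Zar1, Ifnk and Rbakdn, which were near 0 or low in WT, and for Adh6a, which had the smallest p-value of the comparison. Each runs 5′ to 3′ on the strand of the gene, from 250 bases before to 50 bases after a RefSeq start in the GRCm38.p6 build, with CpG dinucleotides, the usual sites of DNA methylation, in capitals. Of 41 genes looked up (Setdb1, the 30 genes with the smallest p-values and the others with few UMIs in one genotype), 30 had such an entry that could be used. The windows are chr5:72581035-72581334 for Zar1 (minus strand, 17 CpG), chr4:35151805-35152104 for Ifnk (plus strand, 3 CpG), chr5:143165702-143166001 for Rbakdn (minus strand, 11 CpG) and chr3:138313036-138313335 for Adh6a (plus strand, 2 CpG).
Zar1: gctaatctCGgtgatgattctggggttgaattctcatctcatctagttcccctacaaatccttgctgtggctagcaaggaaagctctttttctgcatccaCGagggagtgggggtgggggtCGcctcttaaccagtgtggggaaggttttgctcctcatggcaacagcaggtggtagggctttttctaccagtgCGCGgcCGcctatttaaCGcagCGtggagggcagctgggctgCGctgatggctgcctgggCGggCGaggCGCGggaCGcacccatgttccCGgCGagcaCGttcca
Ifnk: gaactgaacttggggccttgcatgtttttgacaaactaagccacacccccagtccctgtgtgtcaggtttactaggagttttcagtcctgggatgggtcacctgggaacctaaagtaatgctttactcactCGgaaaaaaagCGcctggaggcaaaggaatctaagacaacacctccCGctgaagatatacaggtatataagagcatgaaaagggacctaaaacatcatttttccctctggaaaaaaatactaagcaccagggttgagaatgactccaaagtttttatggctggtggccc
Rbakdn: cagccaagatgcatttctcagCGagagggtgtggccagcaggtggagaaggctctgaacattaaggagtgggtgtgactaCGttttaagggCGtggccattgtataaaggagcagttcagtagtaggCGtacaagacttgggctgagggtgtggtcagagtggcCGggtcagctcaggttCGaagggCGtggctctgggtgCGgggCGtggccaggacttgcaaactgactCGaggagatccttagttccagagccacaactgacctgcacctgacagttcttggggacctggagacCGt
Adh6a: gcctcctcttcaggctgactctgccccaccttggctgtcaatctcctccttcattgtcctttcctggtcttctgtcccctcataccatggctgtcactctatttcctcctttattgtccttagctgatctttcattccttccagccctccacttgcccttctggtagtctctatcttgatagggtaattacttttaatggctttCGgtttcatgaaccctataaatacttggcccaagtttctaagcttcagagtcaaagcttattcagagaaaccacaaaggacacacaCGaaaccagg

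Windows near the starts of the called genes held fewer CpG than those of the tested genes at large. These windows of 300 bases were placed at GENCODE starts whose positions had been rounded to 6 significant digits. Many were thus shifted from the start, some by about their own length, for called and tested genes alike. Their median was 6 CpG for the 119 higher genes and 7 CpG for 74 of the lower genes, against 16 CpG for 13636 tested genes. At least 10 CpG were present in 30.3% of the higher, 37.8% of the lower and 68.6% of all windows. Among genes of at least 1 CPM in WT the medians were 6 CpG for 84 higher genes and 18 CpG for 11440 tested genes. The lower genes were not split by level. A rounded window can differ from the printed one through the rounding or through differing RefSeq and GENCODE starts. For Rbakdn, which has the same start in both, it held 6 CpG against 11 in the printed window. For Zar1 it held 3 CpG against 17. The counts therefore describe the surroundings of the starts and not exact promoters. These are descriptions of sequence, and no methylation was measured here.

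Called genes often lay near each other. Another called gene started within 500 kb of 34.5% of the higher and 30.7% of the lower genes, against 15.5% of all 13649 tested genes with a placed start, and 28 of the 41 such pairs changed in the same direction. The pairs are not independent, since some share a gene, as those among Gm10522, Dusp12 and Atf6 do. Their shared direction was not compared with that of called genes paired at random. Some pairs are members of one family, such as Apoc3 and Apoa4 (5.06 kb), Gstm3 and Gstm6 (25.5 kb) or Clca3a2 and Clca3b (29.9 kb). Others were of unrelated genes, such as Alad with Hdhd3. Reg3b and Reg3a, 10.1 kb apart, changed in opposite directions. Within 10 Mb of Setdb1, where mouse lines made by gene targeting can differ in flanking DNA, 264 genes were tested, with a median log2 fold change of -0.05. Of these, 5 were higher (Bglap3, Hsd3b3, Reg4, Pklr and Ciart) and 0 lower, beside 0.871% higher and 0.549% lower among all tested genes. The count is read as no result about this stretch. On the whole of chromosome 3, which carries Setdb1, 12 of 685 tested genes were higher and 7 lower (2.77% called). On the other autosomes the called share ran from 0.613 to 2.33%, and the part of flanking DNA was not tested.

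In the lists of absorptive functions the called genes were all higher in Setdb1-KO. Of 20 tested genes of fat absorption 5 rose and 0 fell, beside 0.871% and 0.549% of all tested genes. The median log2 fold change of the list was 0.86, against -0.01 for all tested genes. Mogat2, which re-esterifies absorbed monoglycerides, was at 19.5 and 23.4 CPM in WT and at 49.3 and 44.4 CPM in Setdb1-KO (1.12 ± 0.112, adjusted p = 0.00901). The lipoprotein components Apoc3, Apoa4 and Apoc2 rose by 1.22, 1.24 and 0.81 on the log2 scale (adjusted p = 0.0157, 0.018 and 0.0246), and the cholesterol transporter Npc1l1 rose by 0.90 (adjusted p = 0.0266). Apob, the scaffold of chylomicrons, was at 18.8 and 23.1 CPM against 24.3 and 18.4 CPM and did not pass (adjusted p = 0.966).

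Of 10 enterocyte markers 3 rose (Sis, Apoc3 and Apoa4), beside 0.871% of all tested genes, and the median log2 fold change was 1.05. Sis, the sucrase-isomaltase that splits dietary disaccharides, was at 51.2 and 50.6 CPM in WT and at 96.6 and 114 CPM in Setdb1-KO (1.05 ± 0.096, adjusted p = 0.00739). Fabp1, a fatty acid binding protein of enterocytes, was at 377 and 1090 CPM against 2190 and 860 CPM, so that the genotypes overlapped (adjusted p = 0.373). Summed over the 10 markers, the enterocyte level was 2157 and 3250 CPM in WT and 6826 and 3968 CPM in Setdb1-KO, with library 1 of Setdb1-KO the highest. The exact permutation test over 2 against 2 libraries cannot give a p under 0.33 for such a sum.

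Of 18 nutrient transporters 2 rose, beside 0.871% of all tested genes: the fructose transporter Slc2a5 (1.06, adjusted p = 0.0435) and the amino acid transporter Slc6a19 (1.36, adjusted p = 0.0466). Slc5a1, the sodium-coupled glucose transporter, was at 25.3 and 26.8 CPM against 29.7 and 28.1 CPM (adjusted p = 0.424). The lactase gene Lct stayed under 1 CPM in the 4 libraries. Leaving out Setdb1-KO library 1 left 0 of the 5 fat absorption calls, while leaving out library 2 gave 10 calls in that list, WT library 1 gave 1 and WT library 2 gave 4. Slc2a5 was called in 0 of the 4 fits that left out a library, and Slc6a19 in 1, without Setdb1-KO library 2.

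Enzymes of xenobiotic metabolism had the most calls of any function list, 10 of 31 higher and 0 lower, with a median log2 fold change of 0.63. The called shares of all tested genes were 0.871% higher and 0.549% lower. For 27 of the 31 both Setdb1-KO libraries were above both WT libraries, against 24.6% of all tested genes. Gstm3, a glutathione S-transferase of the mu class, was at 38.7 and 46.6 CPM in WT and at 94.9 and 93.8 CPM in Setdb1-KO (1.15 ± 0.101, adjusted p = 0.00609). Cyp4f14, a cytochrome P450 of fatty acid and leukotriene oxidation, was at 35.7 and 31.6 CPM against 77.7 and 62.9 CPM (1.06 ± 0.12, adjusted p = 0.0155). Ces2a, a carboxylesterase, rose by 0.83 (adjusted p = 0.0185). The other calls were Adh1, Cyp2c65, Cyp2b10, Nqo1, Gsta3, Aldh1a1 and Gstk1, the last 5 at log2 fold changes of 2.11, 0.58, 1.38, 1.48 and 0.60.

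Cyp3a11, a main drug-oxidising P450, was at 1.12 and 1.20 CPM in WT and at 2.10 and 2.37 CPM in Setdb1-KO, and missed the threshold (adjusted p = 0.0917). The members of the Gst, Cyp and Ces families have close relatives whose reads may be shared. Counts of calls in this list were 0 without Setdb1-KO library 1, 11 without library 2, 2 without WT library 1 and 4 without WT library 2.

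Peptide hormones and granins, the products of enteroendocrine cells, were the list with the highest median among those with calls, at 1.34 over 23 tested genes. Of these, 4 rose and 0 fell, and for 18 both Setdb1-KO libraries were above both WT libraries, beside 0.871% and 24.6% of all tested genes. Sct, the hormone secretin, was at 124 and 134 CPM in WT and at 343 and 239 CPM in Setdb1-KO (1.17 ± 0.163, adjusted p = 0.0269). Sst, somatostatin, was at 30.4 and 54.2 CPM against 166 and 114 CPM (1.72 ± 0.277, adjusted p = 0.0376). Scg5, a chaperone of prohormone convertase, rose by 2.23 (adjusted p = 0.0384), and Reg4, a secreted lectin of enteroendocrine and goblet cells, was at 52.5 and 78.7 CPM against 159 and 214 CPM (1.51, adjusted p = 0.0266).

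The granins Chga and Chgb, defining markers of the lineage, missed the threshold with adjusted p-values of 0.0523 and 0.0749. Chga was at 47.4 and 89.2 CPM in WT and at 224 and 172 CPM in Setdb1-KO. No hormone call held without Setdb1-KO library 1 or without WT library 1, whereas 16 genes passed without Setdb1-KO library 2 and 6 without WT library 2. With the marked doublets removed 1 of the 4 calls was left, and the log2 fold change of Sst was 1.01 (adjusted p = 0.667). Enteroendocrine-like barcodes made up 3.15 and 3.68% of the WT libraries and 8.41 and 5.46% of the Setdb1-KO libraries. In summed counts, more cells of a type and more RNA per cell of that type cannot be told apart.

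When the same number of barcodes of each class was drawn from every library, 2796 per library in all, 99 genes were higher and 91 lower. Of the 119 higher genes 113 could be tested there, 113 kept their direction and 73 passed, and the median log2 fold change of the tested ones was 0.92 in place of 1.24. Fat absorption kept 5 calls and xenobiotic metabolism 9, but the hormones kept 2: Sst (1.29, adjusted p = 0.003) and Scg5 (1.24, adjusted p = 0.040). Secretin was then at 0.31 (adjusted p = 0.113) and Reg4 at 0.67 (adjusted p = 0.199). Enterocyte-like barcodes were 9.03 and 9.72% of WT and 12.4 and 10.7% of Setdb1-KO barcodes before the draw. The draw equalized classes and not the clusters within them. An enterocyte-like cluster led by genes such as Apoa1, Apoa4 and Apoc3 held 18.4 and 23.2% of that class in WT and 31.5 and 20.8% in Setdb1-KO. The part of this cluster in the absorptive calls was not tested. The 74 testable genes of the lower side kept their direction, 57 passed, and their median of -1.10 was close to the -1.17 of the whole sort.

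On the lower side, 1 of 10 stem cell markers and 2 of 19 genes in the list of Wnt targets and stem genes fell, with medians of -0.39 and -0.42. Among all tested genes 0.549% fell. Olfm4, the most abundant marker of crypt base stem cells, was at 3074 and 3003 CPM in WT and at 1679.7 and 1549.6 CPM in Setdb1-KO (-0.91 ± 0.117, adjusted p = 0.0213). Rnf43, a ubiquitin ligase that removes Wnt receptors and is itself a Wnt target, was at 26.2 and 23.6 CPM against 16.4 and 16.0 CPM (-0.62, adjusted p = 0.0319). For Lgr5 the log2 fold change was -0.73 with an adjusted p of 0.102. Ascl2, a transcription factor of the stem cell state, was at 75.9 and 60.0 CPM against 79.3 and 56.5 CPM.

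The summed level of the 10 stem markers was 3783 and 3680 CPM in WT and 2277 and 2048 CPM in Setdb1-KO, and stem-like barcodes were 21.9 and 24.9% of WT and 18.3 and 18.3% of Setdb1-KO barcodes. Olfm4 was still called with the class make-up held equal (-0.71, adjusted p = 0.029). It was not called without Setdb1-KO library 1 (adjusted p = 0.206) or library 2 (0.12). Rnf43 was called in none of the fits without Setdb1-KO library 1 (0.18), library 2 (0.0588) or WT library 1 (0.0861).

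MHC class II presents extracellular peptides and is present on crypt base stem cells. All 7 of its tested genes were lower in both Setdb1-KO libraries than in both WT libraries, beside 25.6% of all tested genes. Their median was -1.77, and 1 of them passed, beside 0.549% of all tested genes that fell. H2-Aa was at 190 and 123 CPM in WT and at 18.1 and 45.5 CPM in Setdb1-KO (-2.28 ± 0.397, adjusted p = 0.0485). H2-Ab1 and H2-Eb1 had log2 fold changes of -1.77 and -2.00 and missed the threshold narrowly (adjusted p = 0.0504 and 0.0606). The spread within genotypes was wide, as the 2 Setdb1-KO values of H2-Aa show. The test was passed by 5 of the 7 genes in stem-like and progenitor-like barcodes alone, and by 6 without Setdb1-KO library 2. None passed without Setdb1-KO library 1, WT library 1 or WT library 2 (adjusted p of H2-Aa 0.137, 0.121 and 0.0597), nor with the marked doublets removed (adjusted p of H2-Aa 0.0703).

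The lists of MHC class I and interferon-related genes had medians nearer 0. Of 15 class I genes 3 fell (H2-D1 by 0.58, H2-T23 by 0.57 and H2-Q7 by 1.85 on the log2 scale, adjusted p = 0.031, 0.0329 and 0.0405), with a list median of -0.47, beside 0.549% of all tested genes that fell. Both Setdb1-KO libraries were below both WT libraries for 14 of the 15 class I genes and above for 0, beside 25.6% and 24.6% of all tested genes. In this family reads can be shared between genes. Of 36 genes of interferon response and nucleic acid sensing 4 fell and 0 rose, with a median of -0.59, beside 0.549% of all tested genes that fell. For 24 of the 36 both Setdb1-KO libraries were below both WT libraries, and for 3 they were above. Ifitm3, which blocks viral entry, was at 705 and 783 CPM in WT and at 357 and 419 CPM in Setdb1-KO (-0.94 ± 0.116, adjusted p = 0.0192). The transcription factor Irf1, the tethering factor Bst2 and the chemokine Cxcl10 had log2 fold changes of -0.68, -0.66 and -2.90 (adjusted p = 0.0346, 0.0494 and 0.0319), and Cxcl10 was below 1.3 CPM in every library.

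Ifnk, an interferon itself, had risen in the same libraries in which these response genes were lower. H2-D1, H2-T23 and Cxcl10 were called in 0 of the 4 fits that left out 1 library. Bst2 was called in 1 of them, without Setdb1-KO library 2, and H2-Q7, Ifitm3 and Irf1 in 2. None of the 7 was called without Setdb1-KO library 1 (adjusted p from 0.156 to 0.268). The list counts in the fits without 1 library were 0 to 4 for class I and 0 to 3 for the interferon genes.

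Of 10 T cell markers 3 fell in Setdb1-KO, beside 0.549% of all tested genes. Gzma, a granzyme of cytotoxic cells, was at 42.8 and 29.3 CPM in WT and at 6.54 and 5.77 CPM in Setdb1-KO (-2.56 ± 0.189, adjusted p = 0.0035). Ccl5, a chemokine of T cells, was at 58.1 and 36.4 CPM against 6.85 and 6.85 CPM (-2.78 ± 0.217, adjusted p = 0.00458). Gzmb fell by 2.82 on the log2 scale (adjusted p = 0.0298), and the 10 markers together summed to 121 and 79.2 CPM in WT and to 19.2 and 15.6 CPM in Setdb1-KO. Cd79a, a B cell receptor chain, had 32 UMIs in WT and 2 in Setdb1-KO, and Igkc was at 1.67 and 102 CPM against 0 and 0.120 CPM, which puts the immunoglobulin signal in WT library 2 almost alone.

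Barcodes with at least 3 of the 10 T cell markers numbered 26 and 22 in WT and 7 and 7 in Setdb1-KO, or 0.546, 0.359, 0.242 and 0.0613%. Without them the log2 fold changes of Gzma and Ccl5 were -1.26 (adjusted p = 0.337) and -1.53 (adjusted p = 0.257). The comparison then called 119 genes higher and 69 lower. Gzma and Ccl5 are among the markers that picked these barcodes, so a loss of their UMIs was built into the choice. Both genes also lost their call without Setdb1-KO library 1 (adjusted p = 0.0663 and 0.0883). The cluster of tuft-like barcodes was led in part by Igkc and Ccl5 besides tuft genes. Those leading genes were found with the T cell-like barcodes included.

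In the Reg family of antimicrobial lectins 2 of 5 tested genes rose and 1 fell, beside 0.871% and 0.549% of all tested genes. Reg3b was at 748 and 1157 CPM in WT and at 438 and 410 CPM in Setdb1-KO (-1.17 ± 0.195, adjusted p = 0.0425), while Reg3a, its neighbor, was at 21.7 and 19.7 CPM against 57.2 and 36.6 CPM (1.17 ± 0.196, adjusted p = 0.0425). Reg3g was at 538 and 789 CPM against 165 and 407 CPM and did not pass (adjusted p = 0.174). Without Setdb1-KO library 1, none of the 3 Reg calls held (Reg3b, Reg3a and Reg4, adjusted p = 0.268, 0.111 and 0.108). Reg3b was also lost without Setdb1-KO library 2 (0.0874), Reg3a without either WT library (0.109 and 0.125) and Reg4 without WT library 1 (0.0535).

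The median of 18 goblet cell products was 0.07, Muc2, the main gel-forming mucin, was at 817 and 679 CPM in WT and at 733 and 842 CPM in Setdb1-KO, and 1 of the 18, the membrane mucin Muc13, fell (-0.59, adjusted p = 0.0314, and not called in 3 of the 4 fits without 1 library, without Setdb1-KO library 1, WT library 1 or WT library 2, at 0.213, 0.0705 and 0.0968). Among all tested genes 0.549% fell. Paneth cell antimicrobial genes had a median of 0.92 over 26 genes, but 0 were called. Their summed level was 9589 and 12003 CPM in WT and 8966 and 37670 CPM in Setdb1-KO, so the high values came from Setdb1-KO library 2 alone. The tuft cell genes had a median of 0.58 over 18 genes and 0 calls.

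**Figure D3:**
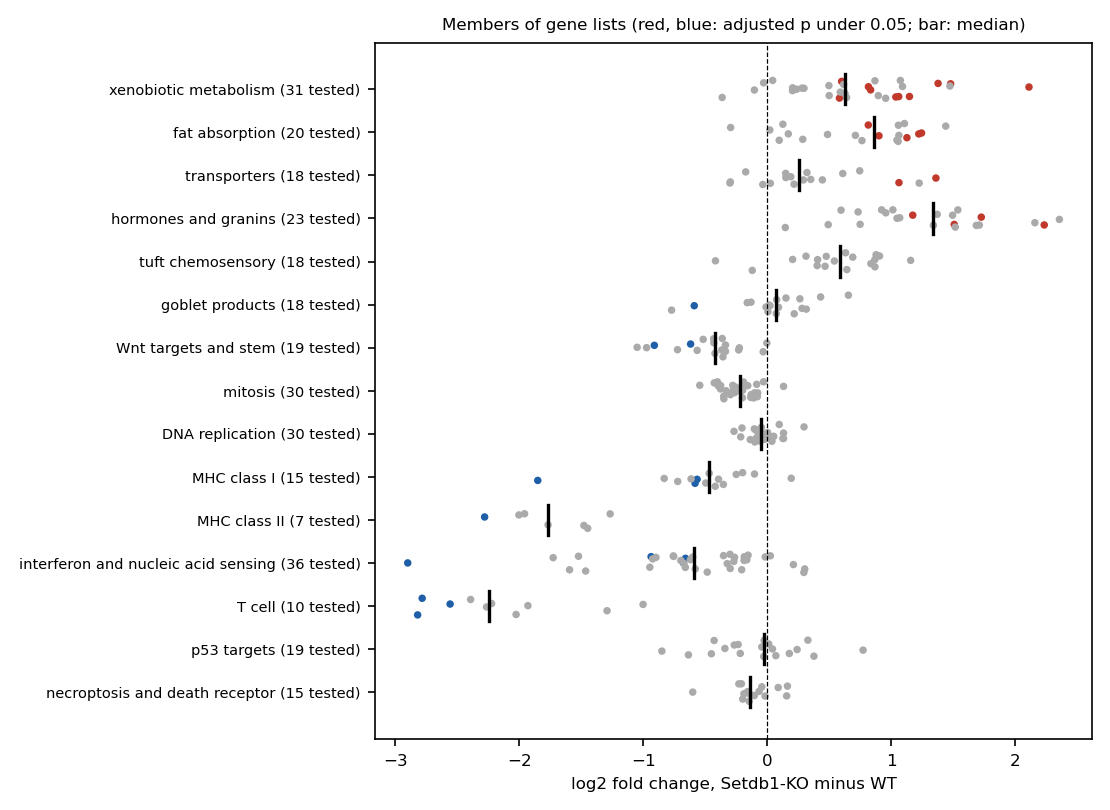
Log2 fold change of Setdb1-KO against WT for the tested members of some of the gene lists, 1 list a line. Red and blue points passed at an adjusted p under 0.05, gray points did not, and the black bar is the list median. Among the lists drawn, the medians run from -2.24 for T cell markers to 1.34 for hormones and granins, and most members of each drawn list are gray.

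Many lists in which a change might have been looked for held no called gene. Since 1.42% of all tested genes were called, 0 calls in a short list says little about its members. None of 15 necroptosis and death receptor genes (median -0.14), 19 p53 targets (-0.03), 13 Notch genes (-0.05), 33 lineage transcription factors (0.07), 30 DNA replication genes (-0.05) or 30 mitosis genes (-0.22) passed. For 19 of the 30 mitosis genes both Setdb1-KO libraries were below both WT libraries, beside 25.6% of all tested genes. They were above both WT libraries for 13 of the 33 lineage transcription factors, beside 24.6% of all tested genes, and below for 3. The 89 genes of oxidative phosphorylation and the 80 ribosomal protein genes had medians of 0.02 and -0.03. Among targets known for Setdb1 in other tissues, 0 of 46 zinc-finger genes of the Zfp9xx group passed, and few members of other groups could be tested at all, 3 of 56 clustered protocadherins and 1 of 20 germline genes. Zar1 and Thegl were not on the germline list and were seen only in the values. The study had named 15 genes of differentiated cells as activated in Setdb1-KO stem cells of this series, so they are not independent evidence. Of these, 2 rose (Apoc3 and Gpx3), beside 0.871% of all tested genes. Both Setdb1-KO libraries were above both WT libraries for 10 of them and below for 0, beside 24.6% and 25.6% of all tested genes. The list median was 0.79. Of 9 genes of the fetal and regenerative state 1 rose, Ly6e, beside 0.871% of all tested genes. Ly6a, the usual marker of that state, was at 4.83 and 4.31 CPM against 3.18 and 3.64 CPM. A histone gene, Hist1h2bc, was the 1 called of 58 (0.61, adjusted p = 0.0319), beside 1.42% of all tested genes.

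The sort was then split into 8 classes rebuilt by clustering, of which 7 were named from fixed markers and 1, led by Dmbt1, Rbp7 and Snhg3, was left unnamed. The class sums hold the same reads as the whole sort and are a breakdown of it, not a second test. Called genes were 0.586% of those tested in stem-like, 0.964% in progenitor-like, 1.25% in enterocyte-like, 0.301% in goblet-like, 0.248% in enteroendocrine-like, 0.602% in tuft-like, 0.371% in Paneth-like and 1.04% in unnamed barcodes. No gene called over the whole sort was called in the opposite direction in any class. Of the whole-sort genes, 96 higher and 70 lower could be tested in progenitor-like barcodes, 95 and 70 kept their direction, and 43 and 40 were called there. In stem-like barcodes, 27 of 74 and 15 of 65 testable genes were called.

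Some genes were called in all or most of the classes in which they could be tested. Alad was called higher in all 8 classes, with log2 fold changes from 1.10 in enteroendocrine-like to 1.5 in stem-like barcodes. Gm42031 was also called in 8 of 8, Bglap3 in 6 of 7, and Plscr2 and Eif3j2 in 5 of 5. On the lower side Ceacam10 was called in 8 of 8 classes, with log2 fold changes from -3.92 in enterocyte-like to -1.55 in enteroendocrine-like barcodes. Adh6a was called in 7 of 7, Lamtor3 in 6 of 7 and H2-Aa in 6 of 8. Free RNA differed in the same direction: in near-empty barcodes of 10 to 100 UMIs, Ceacam10 was at 76.2 and 67.5 CPM in WT and at 9.6 and 6.16 CPM in Setdb1-KO. In the same barcodes Alad was at 72.8 and 80.9 CPM against 169 and 148 CPM, and H2-Aa at 114 and 60.7 CPM against 8.08 and 30.8 CPM. Near-empty barcodes held 288568 and 148246 UMIs in WT and 1979420 and 162250 UMIs in Setdb1-KO, the most in Setdb1-KO library 1. Many of these values therefore rest on few UMIs. The part of free RNA in the class values and in the shares of barcodes with a UMI was not tested. Adh6a and Sis were among the genes that led an enterocyte-like cluster, and Ceacam10, Pdgfa and H2-Aa among those that led a stem-like cluster, so the classes were partly drawn by these genes. In stem-like barcodes that cluster held 37.3 and 29.4% of the WT and 28.5 and 32.4% of the Setdb1-KO barcodes.

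Other genes differed in few classes. Of the 119 higher genes 115 could be tested in at least 1 class. Of these 30, and of the 75 lower genes 22, were called in no single class. In 3 or more classes 26 and 15 were called. Sis passed in 2 of 7 classes and Olfm4 in 2 of 8, though Olfm4 was lower in each of the 8. Lcn2 and Gm16867 could be tested in 1 class only. Setdb1 had log2 fold changes of -1.05 in stem-like, -0.95 in progenitor-like, -0.49 in enterocyte-like and -0.30 in goblet-like barcodes, none of which passed the test within its class.

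**Figure D4:**
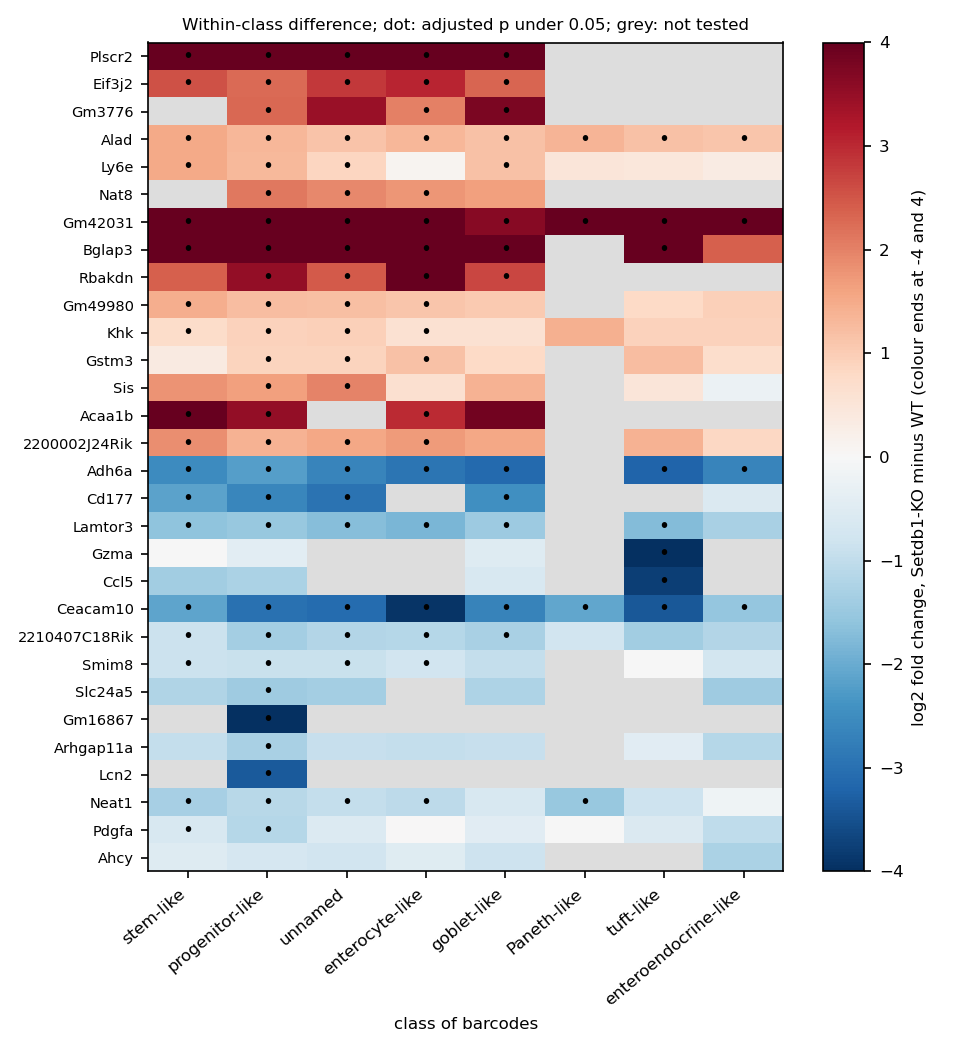
Log2 fold change of Setdb1-KO against WT in each of the 8 cell classes for leading genes of the whole sort. Red and blue give higher and lower values on the scale shown, cells with a dot passed within the class at an adjusted p under 0.05, and gray cells were not tested. The color scale ends at -4 and 4. Alad and Gm42031 passed in 8 of 8 classes and Ceacam10 in 8 of 8.

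The study also traced the progeny of Lgr5+ cells, with a permanent GFP label from the nTnG reporter, in 2 Setdb1-KO and 2 WT libraries of GFP+ ileal epithelium. Those libraries were shallower, with medians of 1876 to 2568 UMIs per kept barcode, and 1438 of 13749 genes (10.5%) differed between genotypes in them, 363 (2.64%) higher and 1075 (7.82%) lower in Setdb1-KO, with a median log2 fold change of 0.03. Of the 118 genes higher in the Lgr5+ sort that could be tested there, 9 were called higher and 47 lower, and 38 had the same direction, with a median log2 fold change of -0.59. Of 74 lower genes 15 were called lower and 6 higher, and 41 had the same direction. The difference between the 2 experiments was tested with an interaction term over the 8 libraries, which called 944 genes (6.87%), among them 72 of the 118 and 29 of the 74. The 118 and 74 genes were chosen by the Lgr5+ fold change, which is itself part of that difference. A share above that of all genes is thus partly built in and is read as no result.

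Several absorptive and metabolic genes that rose in the Lgr5+ sort were lower in traced Setdb1-KO. The CPM values of this comparison were scaled over the 8 libraries. Apoc3 was at 151 and 190 CPM in traced WT and at 7.65 and 18.1 CPM in traced Setdb1-KO (log2 fold change -3.65, interaction 4.87, adjusted p of the interaction 2.39e-05). Gstm3 was at 747 and 803 CPM against 86.9 and 147 CPM (-2.73), and Acaa1b at 7.84 and 6.70 CPM against 0.123 and 0.337 CPM (-4.71). Bglap3, at 11.3 and 23.8 CPM in Lgr5+ Setdb1-KO on this scale, was at 1.94 and 10.3 CPM in traced WT and at 0 and 0.0842 CPM in traced Setdb1-KO.

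A smaller set kept its direction in both experiments. Eif3j2 was at 4.69 and 3.45 CPM in traced WT and at 40.1 and 35.6 CPM in traced Setdb1-KO (log2 fold change 3.15), Gm42031 at 10.1 and 9.33 CPM against 48.2 and 54.8 CPM (2.40) and Adh6a at 44.6 and 85.6 CPM against 9.75 and 21.8 CPM (-1.97). Ifnk, with 0.0808 and 0 CPM against 1.11 and 2.19 CPM, Muc13 (-0.87), H2-D1 (-0.71) and 2210407C18Rik (-1.05) also passed in the same direction in both. Other leading genes did not pass in the traced libraries, where Plscr2 was at 0.242 and 0.406 CPM against 0.247 and 0.253 CPM, and Lamtor3 at 19.9 and 25.8 CPM against 20.2 and 26.2 CPM. Setdb1 itself was at 8.48 and 5.88 CPM in traced WT and at 9.87 and 8.17 CPM in traced Setdb1-KO, where the 3′ counts again do not check the deletion.

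**Figure D5:**
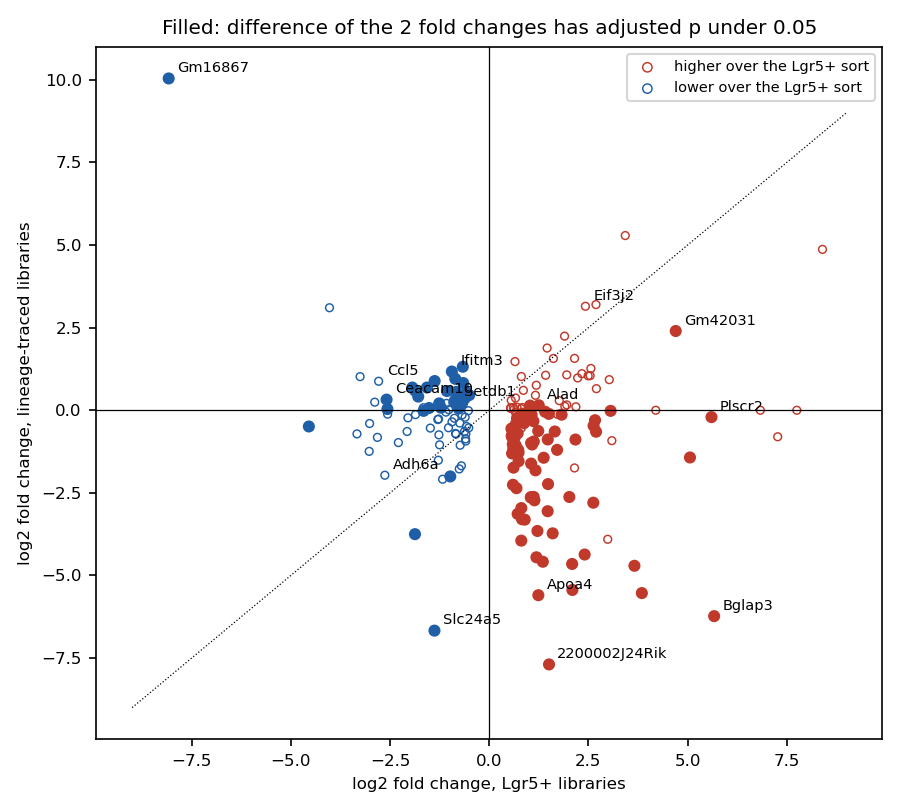
Log2 fold change of Setdb1-KO against WT in the Lgr5+ sort (horizontal) and in the lineage-traced libraries (vertical) for the genes called over the Lgr5+ sort, red for the 118 higher and blue for the 74 lower genes tested in both. Filled points passed the test of the difference between the 2 fold changes, and the dotted line marks equal fold changes. Points in the lower right have opposite directions, as do Apoc3 and Gstm3, and 9 of the higher genes passed as higher in both experiments.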

How the data were processed

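Single-cell 3′ RNA-seq libraries (10x Genomics) of GFP+ cells sorted from ileal crypts were used, 2 per genotype, with 4 lineage-traced libraries for one comparison. The authors deposited UMI counts per gene and barcode, made with Cell Ranger 6.1.1 on mm10 per the submitters' processing notes, with all barcodes listed. These counts are raw and were not normalized by the authors. The study took the 2 libraries of a genotype as independent biological replicates.

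Barcodes with 1000 to 18000 UMIs, 200 to 4000 genes and under 5% of UMIs from genes starting mt- were kept, and counts were summed per library, from 27534841 to 61327531 UMIs. Sums were filtered with filterByExpr, scaled by TMM and tested with edgeR 4.0.16 in R 4.3.3 (quasi-likelihood test, genotype only, Benjamini-Hochberg adjustment over all genes tested, threshold 0.05). Columns of samples not used here numbered 0, since each file holds one sample. Alternatives were DESeq2 1.42.0, other scalings, filters and barcode limits, barcodes thinned to 1000 UMIs, a replicate block, and leaving out each library.

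Doublets were kept in the main sums and marked for an alternative by artificial doublets in the manner of DoubletFinder (pN 0.25, pK 0.09, 10 components). They were 2.32 to 9.13% of barcodes. Cell classes were rebuilt with Seurat 5.3.0 (10 principal components, reciprocal PCA integration, resolution 0.5) and named from marker lists, so class values may differ from the study's through the rebuilt names. The same cluster held most barcodes of the stem-like, enterocyte-like and enteroendocrine-like classes in each library, while among progenitor-like barcodes the largest cluster differed between libraries. T cell-like barcodes, those with at least 3 of 10 T cell markers, were defined after the clusters had been seen.

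Named genes were Setdb1, then the 15 higher and the 15 lower genes with the smallest p, an adjusted p under 0.05, at least a 1.5-fold difference and no overlap of libraries, then up to 4 called and 2 other members of each list with a call. Other genes, among them Plscr1, Hdhd3, Zfp791, Nat8f5, Ceacam1, Zar1, Ifnk, Thegl and those with few counts in one genotype, were chosen after their values were seen. The members and the 45 gene lists were chosen with earlier results of these data known. The list of brush border enzymes and some of the named genes and other lists are not reported here. The scripts were tested on simulated data.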

Additional observations from a re-analysis of the deposited data

Results flagged for a closer look

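The log2 fold change of the Lgr5+ sort minus that of the lineage-traced libraries was tested for each named gene with an interaction term (edgeR's quasi-likelihood test over 8 libraries, Benjamini-Hochberg adjustment), and those listed here passed at an adjusted p under 0.05. Most named genes were chosen by the Lgr5+ fold change, which is itself part of the difference, so passing is partly built into the choice. The values in brackets are these differences on the log2 scale. They were positive for genes of fat and nutrient absorption: Apoc3 (4.87), Apoa4 (6.84), Apoc2 (4.75), Apoa1 (6.18), Apob (3.08), Mogat2 (3.74), Fabp2 (2.33), Rbp2 (4.11), Sis (3.69), Lct (5.19), Slc2a5 (2.67), Slc6a19 (5.94), Slc5a1 (2.12) and Slc2a2 (7.39). They were also positive for enzymes of detoxification and metabolism: Gm3776 (6.77), Gstm3 (3.87), Nat8 (4.64), Acaa1b (8.37), Alad (1.1), Cyp4f14 (3.68), Ces2a (4.13), Adh1 (0.89), Cyp3a11 (8.67), Cyp3a13 (5.35), Papss2 (4.1), Hsd3b3 (1.21) and Pklr (1.93). The same sign was found for the secreted proteins Reg4 (1.61), Reg3a (2.99), Reg1 (2.74), Chga (2.1) and Bglap3 (11.9) and for Plscr2 (5.81), Ly6e (2.12), Gm42031 (2.3), Rbakdn (3.08), 2200002J24Rik (9.2), Slc24a5 (5.29) and H2-Q1 (5.29). Negative differences were found for Setdb1 (-1.1), Lgr5 (-1.27), Rnf43 (-0.97), Cd177 (-2.2), Ceacam10 (-2.91), Lamtor3 (-1.58), Arhgap11a (-1.29), Pdgfa (-1.16), Ifitm3 (-2.11), Bst2 (-1.98) and Gm16867 (-18.12).

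Gm16867 had 0 UMIs in both Lgr5+ Setdb1-KO libraries and in both traced WT libraries, so its difference is a fitted value and no bound. The gene was thus found in opposite genotypes, in WT of the Lgr5+ sort and in traced Setdb1-KO. Slc24a5 was lower in Setdb1-KO in both experiments, and by more in the traced libraries. Gm42031 was higher in both, and by more in the Lgr5+ sort. The traced libraries held other cells and fewer UMIs per barcode, and the part of either in these differences was not tested.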

How the results depend on the processing

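Over the whole sort, 119 genes were higher and 75 lower, and other processing gave 314 and 190 (DESeq2), 231 and 149 (no TMM scaling), 24 and 12 (no filter on low counts), and 80 and 49 (doublets removed). Leaving out 1 library gave 32 to 308 and 10 to 96. The shared replicate numbers do not pair the samples by the labels (Pearson correlation of same-numbered deviations 0.00983 over 13660 genes), and with the replicate number as a block 44 genes were higher and 33 lower. Within classes the block gave, higher then lower, 117 and 94 (stem-like), 119 and 130 (progenitor-like), 113 and 149 (goblet-like), 51 and 27 (enteroendocrine-like) and 39 and 71 (tuft-like). It also gave 16 higher in Paneth-like, 44 lower in enterocyte-like and 68 lower in unnamed barcodes, 803 higher in the traced libraries and 537 lower for the interaction. A clustering resolution of 0.3 gave 2 and 2 genes in Paneth-like and 62 lower genes in stem-like barcodes. Without the filter, 720 genes were higher in the traced libraries and 507 lower for the interaction.

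Leaving out 1 library gave, higher then lower, 16 to 152 and 11 to 147 (stem-like), 13 to 148 and 10 to 128 (progenitor-like), 75 to 346 and 46 to 212 (enterocyte-like), 43 to 98 and 46 to 132 (goblet-like), 30 to 99 and 17 to 151 (enteroendocrine-like), 5 to 84 and 25 to 130 (tuft-like), 1 to 49 and 5 to 30 (Paneth-like) and 85 to 125 and 56 to 115 (unnamed). For the traced libraries the ranges were 70 to 1257 and 459 to 1539, and for the interaction 410 to 1049 and 56 to 636. The traced log2 fold change of Ccl5 turned from 0.88 to -9.84 without traced Setdb1-KO library 2 (adjusted p = 0.0478), and its other values without 1 library ran from 0.01 to 1.72. The cause of these differences was not tested. With 2 libraries per genotype, 19 of the higher and 23 of the lower genes were called in none of the fits without 1 library, and genes under 1 CPM rest on few UMIs.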

Other observations

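The genes of this section were picked from the called genes after their values were seen. The other genes of their pathways were not counted, so they show nothing about a pathway as a whole. Hmgcs1, which makes hydroxymethylglutaryl-CoA for cholesterol synthesis, was at 47.6 and 47.6 CPM in WT and at 82.9 and 74.1 CPM in Setdb1-KO (log2 fold change 0.72, adjusted p = 0.0155, edgeR's quasi-likelihood test). Fdft1, the squalene synthase, was at 30.8 and 28.6 CPM against 47.3 and 47.5 CPM (0.67, adjusted p = 0.0172), and Sqle and Msmo1, which act after it, rose by 0.57 and 0.59 (adjusted p = 0.0278 and 0.0326). Tkfc, another enzyme of fructose metabolism besides Khk, was at 38.3 and 38.3 CPM against 56.9 and 57.4 CPM (0.58, adjusted p = 0.0213). All 5 calls were lost without Setdb1-KO library 1, WT library 1 or WT library 2.

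Among the genes called lower, Cd14, a co-receptor for lipopolysaccharide, was at 20.4 and 20.8 CPM in WT and at 3.99 and 7.05 CPM in Setdb1-KO (-1.86, adjusted p = 0.0165) and was called in each of the 4 fits that left out 1 library. Nos2, the inducible nitric oxide synthase, was at 1.99 and 1.88 CPM against 0.105 and 0.307 CPM (-3.04, adjusted p = 0.0219). Nfkbiz, a regulator of NF-κB target genes, was at 12.1 and 11.9 CPM against 6.64 and 6.83 CPM (-0.83, adjusted p = 0.021), and Zc3h12a, which degrades inflammatory mRNAs, at 16.9 and 14.9 CPM against 4.96 and 7.79 CPM (-1.29, adjusted p = 0.0319). Cyba, a subunit of NADPH oxidases, was at 239 and 254 CPM against 93.1 and 139 CPM (-1.09, adjusted p = 0.0359). Nos2, Nfkbiz, Zc3h12a and Cyba lost their calls without Setdb1-KO library 1, WT library 1 or WT library 2.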
